A study of Mus musculus with 17 samples.

Results

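Chemokine receptors are membrane proteins that bind chemokines, small secreted proteins that direct the migration of leukocytes. The 8 receptors described here were chosen by name. They are Ccr1, Ccr2, Cx3cr1, Cxcr2 and Cxcr4, which signal through G proteins, and Ackr1, Ackr3 and Ccrl2, atypical receptors that bind or present their ligands without classical G protein signalling. All 8 had a feature of their own among the 31647 features of the table. Transcripts of 17 hearts were counted by MACE (massive analysis of cDNA ends), which sequences the 3′ end of polyadenylated RNA. The mice were male wild-type C57BL/6J animals aged 8 to 11 weeks, and all were examined 5 days after surgery. In the 9 mice of the infarct group the left anterior descending artery was tied off permanently, and RNA came from the infarct zone (IZ). The 8 control mice had a sham operation, which left the artery open, and RNA came from the left ventricle. Both groups had anaesthesia and chest surgery, and the labels name no transgene and no other treatment. The controls are whole left ventricle and not matched to the position of the infarct, so region and injury cannot be told apart.

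After a myocardial infarction, leukocytes enter the injured wall in waves. Neutrophils, which carry CXCR2, come first. Monocytes, which leave the bone marrow by way of CCR2, follow and become macrophages. CX3CR1 marks patrolling monocytes and many tissue macrophages. CXCR4 holds cells in the bone marrow and guides them towards CXCL12, and ACKR3 removes CXCL12 from the surroundings. ACKR1 carries chemokines across the wall of venules, and CCRL2 presents the chemoattractant chemerin to cells that carry its signalling receptor CMKLR1.

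The libraries held between 1237675 and 4738307 counts. Levels are given as CPM, counts per 1000000 of a library size scaled by the trimmed mean of M values (TMM), and a count of 3 corresponded to 1.79 CPM in sham and 1.06 CPM in the IZ on average. The sham tissue held the markers of heart muscle, where 7 cardiomyocyte genes summed to between 53520 and 66690 CPM. In the IZ they summed to between 2569 and 24950 CPM, and all 7 were lower by the test across genes, where 33.1% of all tested genes were. The value of 24950 CPM belonged to IZ replicate 1, which stood apart from the other IZ libraries, with 19.5% of its counts on mitochondrial genes against 4.22% to 6.78%. Levels and shares that it pulls are also given without it.

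The make-up of the receptor transcripts differed between sham hearts and the IZ 5 days after infarction. Ackr3 was the most abundant of the 8 in every sham heart, and it fell in the IZ to a level 4.27-fold lower. Cxcr4, Ccr2, Ccr1 and Cx3cr1 rose, Cxcr4 by 12.9-fold. Ccrl2 fell under TMM scaling, while Cxcr2 and Ackr1 were too rare for the test across genes. Genes were compared by edgeR's quasi-likelihood test, two-sided, with Benjamini-Hochberg adjustment over 12301 genes and a threshold of 0.05. Of the 6 receptors that passed its filter on low counts, 4 were higher in the IZ, where 36.3% of all tested genes were higher. The other 2 were lower, as were 33.1% of all tested genes. All 4 that rose had a log2 fold change of at least 2, as 8.33% of tested genes did, and 1 of the 2 that fell had one of -2 or less, as 7.89% did. The median log2 fold change of the 6 was 2.83, and that of all tested genes was 0.05. The filter passes a gene that is high enough in a single group. Ccr1, Ccr2, Cx3cr1 and Cxcr4 had down to 1, 5, 7 and 5 counts in a sham library and passed it by their IZ counts. Among receptors this low in sham the filter favours rises, which tilts this count and this median upward. In bulk tissue, a change in the number of cells that carry a receptor and a change in the RNA per cell cannot be told apart.

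**Figure D1:**
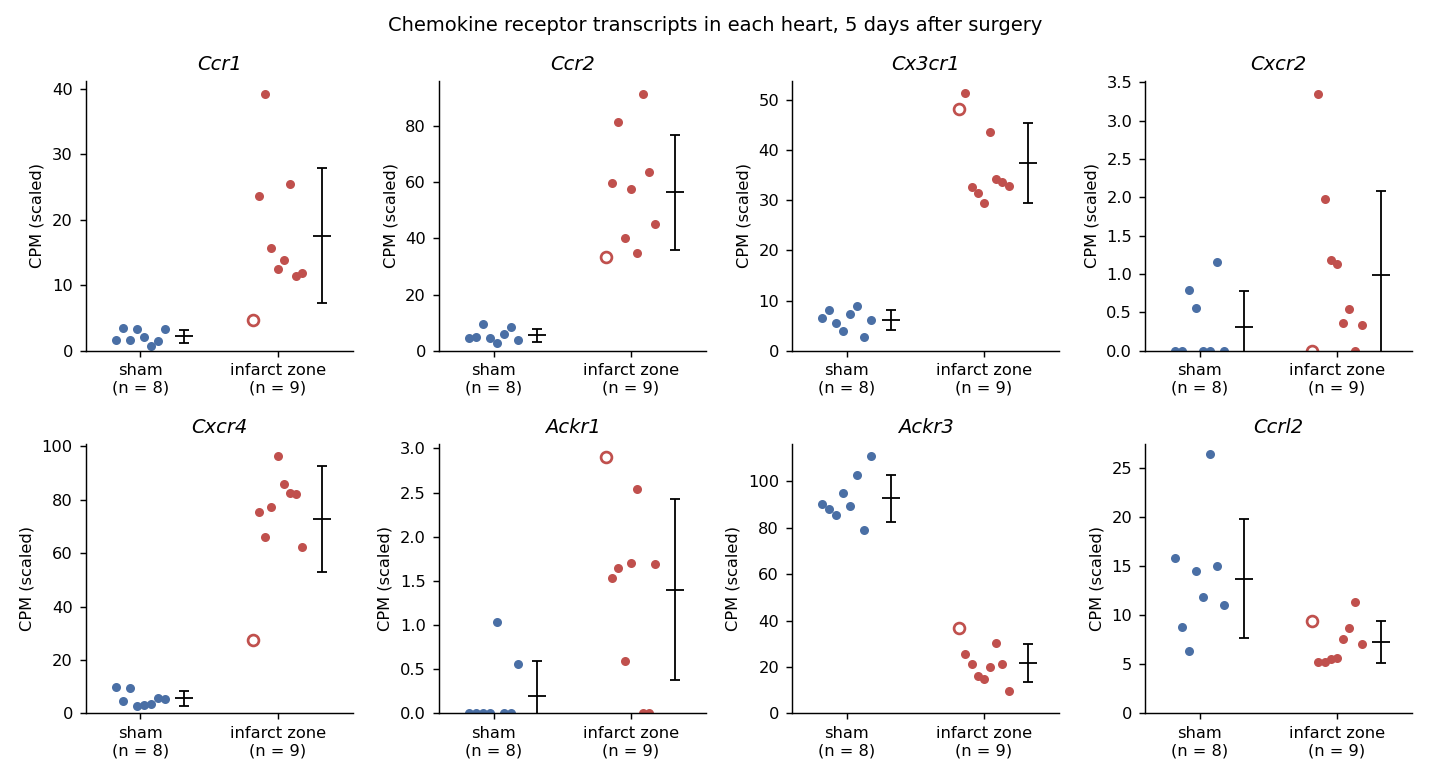
Levels of the 8 receptors (CPM, linear axes that start at 0) in each of 8 sham and 9 IZ libraries. Points are libraries, the open circle is IZ replicate 1, and bars give the mean ± SD, cut off at 0 for Cxcr2 and Ackr1. The groups do not overlap for Ccr1, Ccr2, Cx3cr1, Cxcr4 and Ackr3, and they overlap for Cxcr2, Ackr1 and Ccrl2.

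Cxcr4 and Ackr3 bind the same chemokine, CXCL12, and moved in opposite directions. The gene of Cxcr4 lies on chromosome 1 of mm10 at chr1:128588199-128592293, on the minus strand. That of Ackr3 lies at chr1:90203980-90216751, on the plus strand. The windows around their annotated starts are printed because these are the receptors with the largest rise and the largest fall among the 6 tested. Those of Ccrl2 and Ccr2 are added as the second receptor that fell and the CC receptor with the largest rise. The sequences are from RefSeq, build GRCm38.p6, and run from 250 bases before the RefSeq start to 50 after it, in the direction of transcription. For Ccr2, Cx3cr1 and Ackr1 that start lies well downstream of the start of the gene span given below for each. Both strands were searched for the PU.1 motif GAGGAAG, the AP-1 motif TGANTCA, the HIF motif ACGTG, the GC box motif GGGCGG, the C/EBP motif TTGCNNAA and the TATA box motif spelled TATAAA, and capitals mark the matches.
Cxcr4: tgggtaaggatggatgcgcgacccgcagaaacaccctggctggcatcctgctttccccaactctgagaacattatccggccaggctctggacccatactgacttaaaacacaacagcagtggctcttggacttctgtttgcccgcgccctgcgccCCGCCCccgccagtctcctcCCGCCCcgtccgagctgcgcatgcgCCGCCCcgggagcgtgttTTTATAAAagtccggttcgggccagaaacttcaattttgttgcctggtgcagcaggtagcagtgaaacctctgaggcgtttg
Ackr3: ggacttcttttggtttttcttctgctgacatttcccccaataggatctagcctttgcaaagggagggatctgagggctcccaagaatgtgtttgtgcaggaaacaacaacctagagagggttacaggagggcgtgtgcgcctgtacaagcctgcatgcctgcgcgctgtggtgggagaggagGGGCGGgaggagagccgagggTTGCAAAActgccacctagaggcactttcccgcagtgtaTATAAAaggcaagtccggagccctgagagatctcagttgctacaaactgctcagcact
Ccrl2: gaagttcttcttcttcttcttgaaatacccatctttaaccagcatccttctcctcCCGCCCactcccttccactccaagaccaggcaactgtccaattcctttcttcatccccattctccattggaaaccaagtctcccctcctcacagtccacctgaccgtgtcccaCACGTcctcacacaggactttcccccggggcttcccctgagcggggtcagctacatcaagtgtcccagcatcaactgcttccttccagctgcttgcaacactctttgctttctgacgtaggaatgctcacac
Ccr2: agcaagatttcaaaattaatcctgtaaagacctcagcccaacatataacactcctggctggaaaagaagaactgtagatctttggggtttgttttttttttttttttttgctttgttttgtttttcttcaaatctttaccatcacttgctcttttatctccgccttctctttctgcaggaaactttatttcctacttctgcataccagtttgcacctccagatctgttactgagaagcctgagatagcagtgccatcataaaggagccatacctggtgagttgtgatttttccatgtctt

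The Cxcr4 window lies at chr1:128592250-128592549 and holds 3 GC box matches and 2 overlapping TATA box matches. The Ackr3 window lies at chr1:90203730-90204029 and holds 1 GC box, 1 C/EBP and 1 TATA box match. The Ccrl2 window, at chr9:111057469-111057768, is 1 of 3 annotated for this gene and holds 1 HIF and 1 GC box match. The Ccr2 window, at chr9:124101933-124102232, holds none, and neither do those of Ccr1, Cx3cr1, Cxcr2 and Ackr1. Of 32851 windows of the same length, 35.7% held a GC box match, 13.6% a TATA box match, 10.8% a C/EBP match, 19.6% a HIF match, 13.6% a PU.1 match and 7.81% an AP-1 match. These are matches of letters and do not show that a factor binds.

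Cxcr4 was low in sham, with a lowest level of 2.79 CPM, a median of 5.15 and a highest level of 9.85. In the IZ the lowest level was 27.5 CPM, the median 77.2 and the highest 96.3. Every IZ library was above every sham library, as for 16.6% of all tested genes. The mean went from 5.63 ± 2.72 CPM (SD, n = 8) to 72.8 ± 19.8 CPM (SD, n = 9), a log2 fold change of 3.69 ± 0.25 (SE) with an edgeR adjusted p of 1.93e-11. The lowest IZ level was that of replicate 1, and the other 8 libraries averaged 78.5 ± 10.9 CPM (SD). Of all tested genes, 98.7% had a lower log2 fold change than Cxcr4.

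Ackr3 lay between 79.0 and 111 CPM in sham, with a median of 89.9. In the IZ it lay between 9.46 and 37.0 CPM, with a median of 21.1. All 9 IZ libraries were below all sham libraries, as for 16.5% of tested genes. The mean was 92.7 ± 10.2 CPM (SD, n = 8) in sham against 21.7 ± 8.32 CPM (SD, n = 9) in the IZ, with a log2 fold change of -2.09 ± 0.18 (SE) and an edgeR adjusted p of 5.51e-10. The highest IZ level belonged to replicate 1, and the mean of the other 8 was 19.8 ± 6.47 CPM (SD). Ackr3 is known from endothelial cells among others. The sum of 8 endothelial markers ran from 506.8 to 959.7 CPM in sham and from 379.8 to 621.1 CPM in the IZ. Of the 8, 0 were higher, 5 were not called and 3 were lower, where 33.1% of all tested genes were lower. Those lower were Kdr, by a log2 fold change of -1.70 ± 0.22 (SE, edgeR adjusted p = 2.59e-07), Tek (-0.87) and Egfl7 (-0.66). Pecam1, which all endothelial cells carry, had a log2 fold change of -0.16 ± 0.17 (SE, edgeR adjusted p = 0.414).

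A ratio of 2 genes within a library does not depend on how libraries are scaled, but at low counts the added count and the depth weigh on it. The log2 ratio of Cxcr4 to Ackr3 counts, each plus 1, was between -4.83 and -3.07 in sham and between -0.42 and 2.67 in the IZ. The mean difference was 5.77 on the log2 scale, a 54.6-fold change of the ratio, and no library of one group reached the other. The exact two-sided permutation test over all 24310 assignments of libraries to groups gave p = 4.11e-05, the smallest it can give, and 0.000175 after Benjamini-Hochberg adjustment over the 17 ratios tested. The IZ library at -0.42 was replicate 1, the one IZ heart with more Ackr3 than Cxcr4 counts, and without it the difference was 6.04 (exact permutation adjusted p = 0.000528). Relative to Pecam1, Ackr3 was lower by 4.07-fold (difference in log2 ratio -2.02, exact permutation adjusted p = 0.000175), and 9 of 9 IZ libraries were below all sham libraries. The size depends on the endothelial gene taken as reference, a comparison added after seeing the data. Relative to Kdr, a growth factor receptor of capillary endothelium, the difference was -0.43 (1.35-fold, exact permutation p = 0.0469, also after adjustment over 8 markers), with 2 of 9 IZ libraries below all sham libraries. Relative to Tek it was -1.21 and relative to Egfl7 -1.53. For Cdh5, Emcn, Tie1 and Vwf it lay between -2.10 and -1.80. Their shared ligand Cxcl12 averaged 145.5 ± 22.7 CPM in sham (SD, n = 8), against 170.0 ± 34.7 CPM in the IZ (SD, n = 9). Its log2 fold change of 0.23 ± 0.13 (SE) had a 95% interval from -0.04 to 0.49 and did not pass the threshold (edgeR adjusted p = 0.139).

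Ccr1, Ccr2 and Cx3cr1 are receptors of monocytes and macrophages, and their genes lie on chromosome 9. Ccr2, at chr9:124101950-124113557 on the plus strand, binds CCL2, CCL7 and CCL12. Its level had a lowest value of 2.59, a median of 4.61 and a highest value of 9.50 CPM in sham. In the IZ the lowest value was 33.3, the median 57.8 and the highest 91.65 CPM. The groups were far apart, and the IZ hearts differed among themselves by a coefficient of variation of 36.1%. The mean rose from 5.49 ± 2.36 CPM (SD, n = 8) to 56.45 ± 20.4 CPM (SD, n = 9), with a log2 fold change of 3.35 ± 0.26 (SE, edgeR adjusted p = 1.22e-10). Without IZ replicate 1, the lowest, the IZ mean was 59.3 ± 19.7 CPM (SD, n = 8).

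Ccr1, at chr9:123962124-123968692 on the minus strand, binds CCL3, CCL5, CCL6 and CCL9 among others. In sham it had between 1 and 6 counts a library, or 0.735 to 3.39 CPM with a median of 1.86. In the IZ it ran from 4.71 CPM, in replicate 1, over a median of 13.8 to 39.2 CPM. The groups did not overlap, and the coefficient of variation of 58.6% in the IZ was the largest among the 6 tested receptors. The log2 fold change was 3.01 ± 0.40 (SE, edgeR adjusted p = 4.65e-07), from 2.21 ± 1.02 CPM (SD, n = 8) to 17.6 ± 10.3 CPM (SD, n = 9). Without IZ replicate 1 the IZ mean was 19.2 ± 9.74 CPM (SD, n = 8).

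Cx3cr1, the receptor of fractalkine, is annotated at chr9:119901616-120069879 on the minus strand. Its span includes Gorasp1, Csrnp1 and Xirp1 on the same strand, with which its exons share 0 bases. On the other strand it overlaps Wdr48, Ttc21a, 1700019L13Rik, Gm47043, Gm49427 and Gm33858, with 1103 counts together over all libraries. How reads of that strand were counted is not given. In sham its level had a lowest value of 2.70, a median of 6.34 and a highest value of 8.82 CPM. In the IZ these were 29.45, 33.6 and 51.35 CPM. All 9 IZ libraries were above the sham libraries, and they were more alike than for any other receptor tested, with a coefficient of variation of 21.5%. The log2 fold change was 2.65 ± 0.20 (SE, edgeR adjusted p = 6.56e-11), from 6.13 ± 2.06 CPM (SD, n = 8) to 37.5 ± 8.04 CPM (SD, n = 9). Replicate 1, low for Cxcr4, Ccr2 and Ccr1, was the second highest here with 48.2 CPM, and the other 8 averaged 36.1 ± 7.44 CPM (SD).

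The genes that mark leukocytes rose alongside these 4 receptors. Ptprc, which encodes the leukocyte antigen CD45, had a log2 fold change of 2.83 ± 0.21 (SE, edgeR adjusted p = 7.34e-11), and Csf1r, a macrophage growth factor receptor, one of 2.31 ± 0.13 (SE, edgeR adjusted p = 9.3e-13). All 9 macrophage and monocyte markers with a feature were higher, where 36.3% of all tested genes were. Their summed level was 317.6 to 487.0 CPM in sham and 1785 to 5033 CPM in the IZ. It was mostly Lyz2, with means of 258.7 CPM in sham and 2742 CPM in the IZ. All 5 tested markers of recruited monocytes were higher too, with sums of 87.6 to 210.6 CPM in sham and 1054 to 2647 CPM in the IZ. These sums were mostly Fn1, with means of 103.2 CPM in sham and 1962 CPM in the IZ. Ly6c2 rose least of the 5, by 0.64 ± 0.27 on the log2 scale (SE, edgeR adjusted p = 0.037). Its level was above all sham libraries in 5 of 9 IZ libraries. Of 5 tested markers of resident macrophages, 1 was higher and 3 were lower, where 33.1% of all tested genes were lower. Their sums of 78.6 to 109.7 CPM in sham and 68.1 to 157.2 CPM in the IZ overlapped.

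Relative to Ptprc, these 4 receptors differed less between the groups than their levels did. Ptprc had between 3 and 19 counts in a sham library, so the added count weighs on its ratios. The log2 ratio to Ptprc differed by -0.28 for Ccr1 (exact permutation adjusted p = 0.474), 0.40 for Ccr2 (0.34), -0.29 for Cx3cr1 (0.439) and 0.76 for Cxcr4 (0.0561), and none passed the threshold. The last of these passed it when IZ replicate 1 was left out (0.88, adjusted p = 0.0217), and also without sham replicate 1 (0.0315), 6 (0.0441) or 8 (0.0266). Relative to Csf1r, Ccr2 was higher in the IZ by 1.93-fold, with a difference in log2 ratio of 0.95 (exact permutation adjusted p = 0.00577) and 6 of 9 IZ libraries above all sham libraries. With a count of 5 added in place of 1 it was 0.57 (adjusted p = 0.0473). The same difference was 0.27 for Ccr1 (adjusted p = 0.439) and 0.26 for Cx3cr1 (adjusted p = 0.414), and both turned negative with a count of 5 added.

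The ratio of Ccr2 to Cx3cr1, which monocyte subsets carry in different proportions, had a mean log2 value of -0.16 ± 0.91 in sham (SD, n = 8) and 0.53 ± 0.68 in the IZ (SD, n = 9). The difference of 0.69 did not pass the exact permutation test (adjusted p = 0.133). It did without sham replicate 7, at 0.93 (adjusted p = 0.0334). The ratio of Ccr1 to Ccr2 differed by -0.68 (exact permutation adjusted p = 0.133), and with a count of 5 added by -0.99 (adjusted p = 0.00481). Since Ccr1 had 6 counts at most in a sham library, the added count weighs on this ratio.

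**Figure D2:**
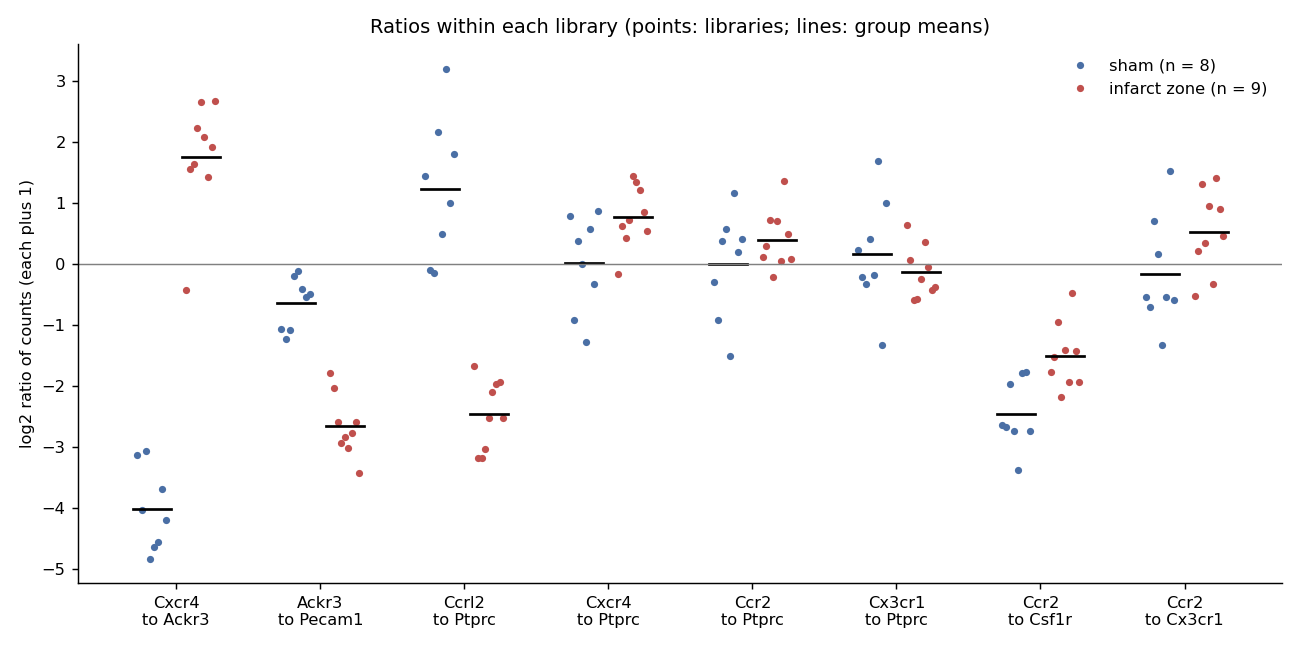
Log2 ratios of 2 genes within each library (each count plus 1) for 8 sham and 9 IZ libraries, with a line at each group mean. The groups are separate for Cxcr4 to Ackr3, Ackr3 to Pecam1 and Ccrl2 to Ptprc, where they differ by 5.77, -2.02 and -3.69, and overlap in the other 5.

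Ccrl2, at chr9:111054486-111057519 on the minus strand, was the second most abundant of the receptors by mean in sham. It had a lowest level of 6.33, a median of 13.2 and a highest level of 26.5 CPM there. In the IZ these were 5.27, 7.10 and 11.4 CPM. The groups overlapped, and 4 of 9 IZ libraries were below all sham libraries. The mean was 13.8 ± 6.07 CPM (SD, n = 8) in sham and 7.33 ± 2.15 CPM (SD, n = 9) in the IZ. The log2 fold change of -0.96 ± 0.24 (SE, edgeR adjusted p = 0.000948) became 0.12 (edgeR adjusted p = 0.62) with total counts as the only scaling, which moved the median of all genes by 1.09. Relative to the median of all genes the change was -1.01 with TMM scaling and -1.02 with total counts. Within libraries, Ccrl2 was lower relative to Ptprc by 12.9-fold (difference in log2 ratio -3.69) and relative to Ccr2 (-4.09), each with an exact permutation adjusted p of 0.000175. Ptprc and Ccr2 themselves rose by 2.83 and 3.35 on the log2 scale. Both ratios would thus be lower with Ccrl2 unchanged, so they do not show that Ccrl2 fell. Chemerin, encoded by Rarres2, had a log2 fold change of 0.28 ± 0.14 (SE, edgeR adjusted p = 0.0876), and its signalling receptor Cmklr1 rose by 1.13 ± 0.19 (SE, edgeR adjusted p = 1e-05). The end of Rarres2 is identical to a stretch of Lrrc61 over 391 bases, so its counts are uncertain.

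Cxcr2, the receptor of neutrophils for CXCL1, CXCL2 and CXCL5, lies at chr1:74153989-74161246 on the plus strand. It had 5 counts in all 8 sham libraries together and 47 in the 9 IZ libraries. No count was found in 5 sham and 2 IZ libraries, and IZ replicate 2 alone gave 24 of the 47. The level was 0.313 ± 0.461 CPM (SD, n = 8) in sham and 0.987 ± 1.09 CPM (SD, n = 9) in the IZ, below the 1.06 CPM of 3 counts. The exact two-sided permutation test of the difference of 0.674 CPM gave p = 0.118. Without IZ replicate 2 the difference was 0.380 CPM (exact permutation p = 0.218), and with total counts as the only scaling it was 1.26 CPM (exact permutation p = 0.0281). In edgeR without a filter on low counts the log2 fold change was 1.70 with an adjusted p of 0.0808. Pooled over libraries, the IZ level was 4.09 times that in sham, with a 95% counting interval from 1.63 to 13.2 that leaves out the spread between hearts. Whether the difference passed the threshold thus depended on the scaling.

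The neutrophil markers were higher in the same hearts. All 4 tested were higher, where 36.3% of all tested genes were. The sum of the 9 markers ran from 6.33 to 20.25 CPM in sham and from 18.5 to 264.6 CPM in the IZ. Ly6g had 0 counts in sham and 3 in the IZ, so this defining marker was at the floor. Of the ligands of CXCR2, Cxcl5 had a log2 fold change of 4.31 ± 0.68 (SE, edgeR adjusted p = 6.32e-06). Cxcl1 fell by 1.52 on the log2 scale (SE 0.33, edgeR adjusted p = 0.000316), from 20.0 ± 7.93 CPM (SD, n = 8) to 7.02 ± 4.29 CPM (SD, n = 9). Cxcl2 and Cxcl3, whose 3′ ends are 98.3% identical over 116 bases, and Ppbp did not pass the filter on low counts.

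Ackr1, at chr1:173331886-173333750 on the minus strand, had 3 counts in sham and 47 in the IZ. It was without a count in 6 of 8 sham and 2 of 9 IZ libraries. The level was 0.199 ± 0.390 CPM (SD, n = 8) in sham and 1.40 ± 1.02 CPM (SD, n = 9) in the IZ, with the highest value, 2.90 CPM, in IZ replicate 1. Without that library the IZ mean was 1.21 ± 0.914 CPM (SD, n = 8, exact permutation p = 0.0138 against sham). Over all libraries, the exact permutation test gave p = 0.00872, and edgeR without a filter on low counts an adjusted p of 0.00788 with a log2 fold change of 2.57, in a fit that called 20.9% of genes higher. The pooled ratio was 6.81, with a 95% counting interval from 2.19 to 34.2. Ackr1 shares 361 exon bases with Cadm3 on the same strand, so its few counts are uncertain. Of 4 tested venular endothelial markers, 2 were higher and 2 lower, where 36.3% of all tested genes were higher and 33.1% lower. Their sums of 92.0 to 494.5 CPM in sham and 200.2 to 264.2 CPM in the IZ overlapped. The ratio of Ackr1 to Pecam1 differed by 1.14 on the log2 scale (exact permutation adjusted p = 0.0655), and by 0.10 with a count of 5 added (adjusted p = 0.759). That to Ackr3 differed by 3.16 (exact permutation adjusted p = 0.0004). For Cxcr2 the ratio to Ccr1 differed by -2.19 and that to Ptprc by -2.47, both with an exact permutation adjusted p of 0.0004. The ratios of Cxcr2 and Ackr1 rest on libraries at 0, where the added count sets the value.

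Together the 8 receptors took 126.4 ± 12.5 CPM in sham (SD, n = 8) against 215.7 ± 37.2 CPM in the IZ (SD, n = 9), and 9 of 9 IZ libraries were above all sham libraries. MACE yields fragments from the 3′ end alone, so counts do not grow with transcript length as in whole-transcript sequencing, but 3′ ends may be captured unequally. With that limit, Ackr3 made up 73.3 ± 3.53% of the receptor counts in sham (SD, n = 8) and Ccrl2 10.7 ± 3.94%. Cx3cr1, Cxcr4 and Ccr2 followed with 4.83%, 4.51% and 4.42%, closer to each other than their SDs of 1.54, 2.26 and 2.13. In the IZ, Cxcr4 led with 33.7 ± 8.58% (SD, n = 9), before Ccr2 with 25.6 ± 5.57%, Cx3cr1 with 17.9 ± 5.44% and Ackr3 with 10.3 ± 4.96%. The ranges of Cxcr4, from 16.9% to 43.9%, and of Ccr2, from 16.7% to 33.5%, overlapped. Ccr1 took 7.80 ± 3.65% and Ccrl2 3.52 ± 1.28%, and Ackr1 and Cxcr2 took at most 1.78% in any library. In IZ replicate 1 the share of Ackr3 was 22.7%, the highest of the IZ, and that of Cxcr4 the lowest, 16.9%. Without this library the IZ shares were 35.8 ± 6.20% for Cxcr4, 26.25 ± 5.59% for Ccr2, 16.5 ± 3.48% for Cx3cr1 and 8.73 ± 1.85% for Ackr3 (SD, n = 8).

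**Figure D3:**
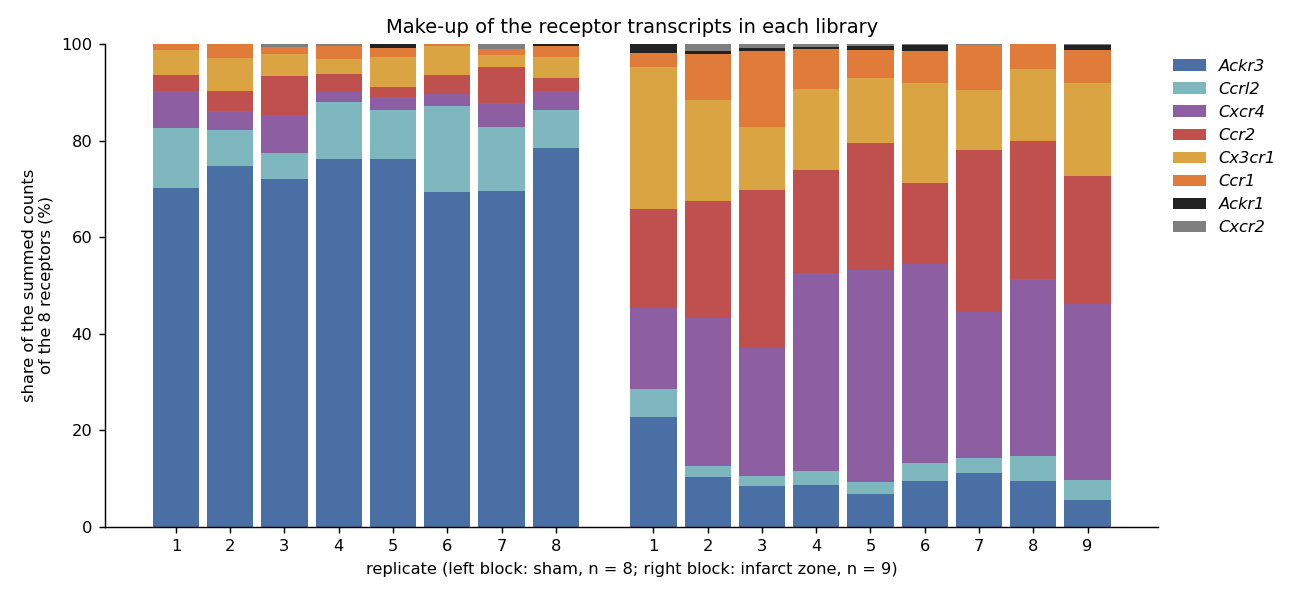
Share of each receptor in the summed counts of the 8 receptors (%), 1 bar per library, with 8 sham bars on the left and 9 IZ bars on the right. Ackr3 takes 69.3% to 78.4% in sham and 5.55% to 22.7% in the IZ, where Cxcr4, Ccr2 and Cx3cr1 take most of the bar.

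Ccr1 and Ccr2 lie in a cluster of receptor genes on chromosome 9, and its members did not reach like levels. In the order Cxcr6, Xcr1, Ccr1, Ccr3 and Ccr2, the gaps between them are 40.6, 100.1, 53.3 and 70.3 kb. Cxcr6, a receptor of T cells and other lymphocytes, rose by 4.31 ± 0.36 (SE, edgeR adjusted p = 5.12e-10) to 9.21 CPM. Ccr3, between Ccr1 and Ccr2, had 3 counts in sham and 8 in the IZ, a pooled ratio of 1.16 after scaling for library size. Xcr1, a receptor of dendritic cells, had 4 and 40. The last 500 bases of Ccr1 and Ccr2 matched no other gene over 100 bases at 95% identity.

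Further receptors outside the 8 were also looked at. Beside Cxcr6 and Cmklr1, which rose, Ackr4, a scavenger of homeostatic chemokines, had a log2 fold change of 0.42 ± 0.39 (SE, edgeR adjusted p = 0.339). The end of Ackr4 matches Acad11 at 99.3% identity over 134 bases. Among those below the filter, Ccr7, which guides cells to lymph nodes, had 3 counts in sham and 100 in the IZ, with 9 of 9 IZ libraries above all sham libraries. Cxcr3, of activated T cells, had 6 and 74 counts. Cxcr5 had 0 and 18, and the end of its transcript is identical to one of Bcl9l over 110 bases. Gpr182, an atypical receptor of endothelium, had 71 and 53 counts. Without a filter on low counts, edgeR gave adjusted p values of 3.35e-06 for Ccr7, 0.00338 for Cxcr3, 0.0136 for Cxcr5 and 0.0187 for Xcr1, all higher, and of 0.00195 for Gpr182, with a log2 fold change of -1.60, in a fit that called 17.6% of genes lower. Ackr2 had 21 and 45 counts, Ccr9 3 and 17, Ccr6 1 and 5, Ccr4 0 and 2, Ccr10 0 and 2, Ccr8 0 and 1, and Cxcr1 0 in both groups. Lymphocyte markers were measured beside Cxcr3, Cxcr5 and Cxcr6. The 10 T and NK cell markers summed to between 0 and 5.43 CPM in sham and 7.05 and 29.9 CPM in the IZ, with Cd8a at 0 in sham, and the 5 B cell markers to between 6.69 and 17.4 CPM in sham and 16.99 and 320.3 CPM in the IZ. Both tested B cell markers were higher, where 36.3% of all tested genes were. Ighm reached 304.5 CPM in an IZ library.

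Most listed ligands of the 8 receptors were higher in the same tissue. Of 18 listed, 15 passed the filter. Of these, 12 rose, 1 fell and 2 were not called, where 36.3% of all tested genes rose and 33.1% fell. Their median log2 fold change was 2.55. Ligands low or absent in sham, such as Ccl3 and Ccl4, passed the filter by their IZ counts, which tilts the count and the median upward. The list includes Ccl4 and Ccl8, named below as related chemokines. For CCR2, Ccl2 had a log2 fold change of 3.37 ± 0.40 (SE, edgeR adjusted p = 8.17e-08), from 3.73 ± 1.93 CPM (SD, n = 8) to 37.9 ± 23.7 CPM (SD, n = 9). Ccl12 rose by 2.55 and Ccl7 by 1.88 on the log2 scale, the latter with 7 of 9 IZ libraries above all sham libraries. For CCR1, Ccl3 and the related Ccl4 had no count in any sham library. Against a floor of 3 counts over the group, the IZ levels were at least 29.0-fold higher for Ccl3 and 47.1-fold higher for Ccl4. Ccl6, Ccl9 and Ccl5 rose by 2.77, 2.92 and 2.55 on the log2 scale, and the related Ccl8 by 3.10. For CX3CR1, Cx3cl1 rose by 1.42 ± 0.19 (SE, edgeR adjusted p = 4.17e-07). Mif, which binds CXCR2 and CXCR4, had 0.41 ± 0.16 (SE, edgeR adjusted p = 0.023), and its end matches 5 other genes or pseudogenes at over 95% identity.

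**Figure D4:**
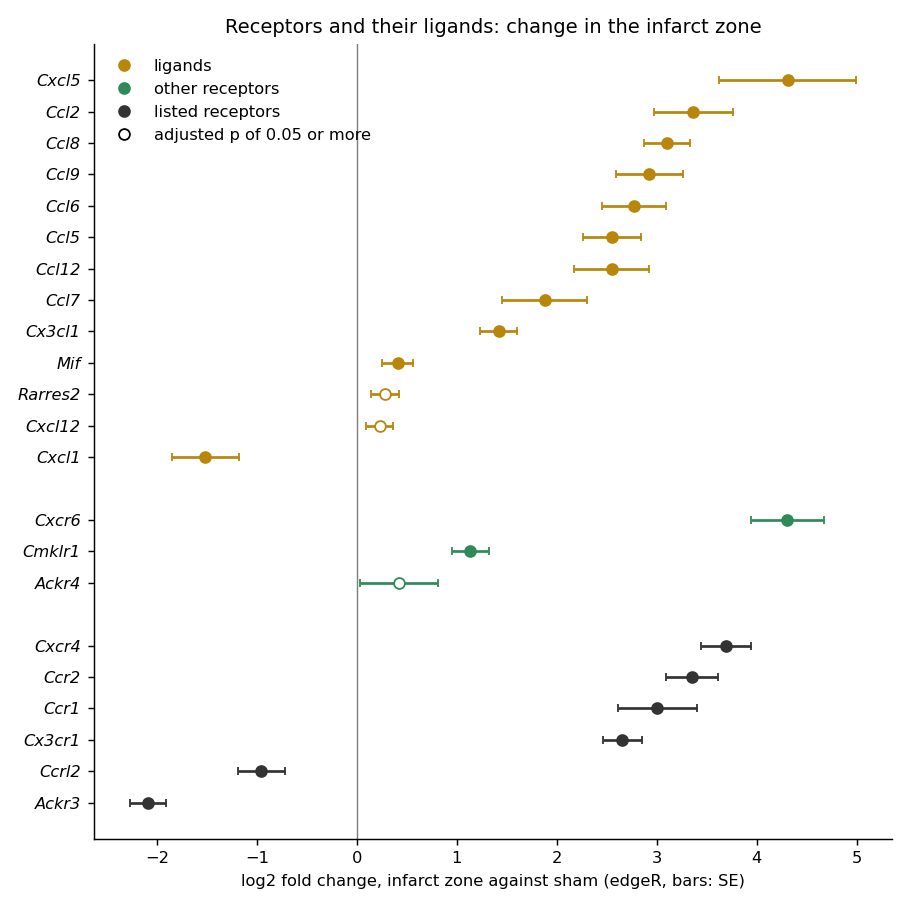
Log2 fold changes (IZ against sham, edgeR, bars are SE) of the listed receptors, 3 further receptors and the ligands that passed the filter on low counts. Open circles have an adjusted p of 0.05 or more. Ccl3 and Ccl4 are left out because no sham library had a count. Ackr3, Ccrl2 and Cxcl1 lie below 0 at -2.09, -0.96 and -1.52.

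Most listed genes that act on the signal of these receptors inside the cell were higher as well. They include genes that pass the signal on and genes that shorten or end it, and the net effect was not tested. Of 25 listed, 24 had a feature of their own and 22 were tested. Of these, 20 rose, 0 fell and 2 were not called, where 36.3% of all tested genes rose and 33.1% fell. Their median log2 fold change was 1.51. Here too the filter favours rises among genes low in sham, such as Rgs1 and Fgr with at most 4 and 5 counts in a sham library. The 3 highest were Vav1, a leukocyte exchange factor, at 4.10 ± 0.27 (SE, edgeR adjusted p = 1.25e-11), Rgs1, which shortens G protein signals, at 4.07 ± 0.51, and the myeloid kinase Fgr at 3.77 ± 0.53. The lowest changes among those called were in broadly expressed genes, with 0.61 ± 0.15 for Itch, a ubiquitin ligase that marks CXCR4 for degradation, 0.54 ± 0.13 for the receptor kinase Grk2 and 0.43 ± 0.14 for the G protein subunit Gnb2. Grk3 (0.00, edgeR adjusted p = 0.995) and Rgs2 (-0.11, edgeR adjusted p = 0.553) did not pass the threshold.

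Among the 9 IZ hearts, the levels of the 6 tested receptors were compared in 15 pairs. None passed the exact permutation test after adjustment, by Pearson's r or by Spearman's rho, and 1 pair had an unadjusted p under 0.05 by each. By r the strongest was Ccr1 with Ccr2 (r = 0.744, exact permutation p = 0.0191, adjusted p = 0.286, rho = 0.6, p = 0.0968, adjusted p = 0.484), and r was 0.526 without the 2 libraries farthest from the median of Ccr1. By rho it was Cx3cr1 with Ackr3 (rho = 0.717, exact permutation p = 0.0369, adjusted p = 0.377, r = 0.597, p = 0.093, adjusted p = 0.523), where r was 0.297 without the 2 libraries farthest from the median of Cx3cr1. Over all 17 libraries, the gene whose deviation from its group mean was most like that of Cxcr4 was Specc1 (r = 0.9 among 9355 genes), followed by Gpr137b (0.829). For Ackr3 these were Fbxw7 (0.837) and Rtn4ip1 (0.798), for Ccr1 Srgn (0.836) and Pdcd6ip (0.796), and for Ccr2 Taf2 (0.808) and Fbxo33 (0.799). For Cx3cr1 they were Unc119b (0.819) and Lancl2 (0.78), and for Ccrl2 Tug1 (0.824) and the mitochondrial transfer RNA gene mt-Tq (0.823). These are descriptions of 17 libraries that share depth and composition differences, and the highest of many values.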

How the data were processed

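The 8 receptors and the gene lists were chosen with earlier results of these data known. RNA of 8 sham left ventricles and 9 infarct zones was sequenced by MACE. The authors deposited raw counts per gene, made per the labels and the study's methods with bcl2fastq, Cutadapt, Bowtie2 to mm10 and HTSeq, after removal of PCR duplicates by molecular identifiers. The annotation release and the handling of strand and of reads with several locations are not given in the sources used here. No batch is labelled. All columns of the table were used. Of 31647 features, 35 were merged overlapping genes, which stayed in library sizes. No library was a copy of another. Replicates were numbered from the labels, which name separate mice.

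Counts were tested in edgeR 4.0.16 (R 4.3.3) with filterByExpr at its default minimum of 10 counts, TMM factors of 0.613 to 1.54, the two-sided quasi-likelihood F-test without covariates and Benjamini-Hochberg adjustment. Ratios within libraries (a count of 1 added to each gene) and the levels of Cxcr2 and Ackr1, a test added after seeing the data, were tested by exact permutation, two-sided, over all 24310 assignments of libraries to groups. Correlations used all 362880 pairings of 9 libraries. Intervals and floors (3 counts) cover counting error only. On simulated counts for 12301 genes with 200 changed by 1 on the log2 scale, 86% of these were recovered and 4.97% of the calls were false. Named were all listed receptors, further receptors (1 result is not reported here), ligands that bind a listed receptor, the 3 highest and 3 lowest called genes of the ligand and signalling lists, and the 2 genes most like each tested receptor (mean of at least 10 CPM). Selected after their values were seen were genes named with no call (Grk3, Rgs2). Near-identical 3′ ends were sought with BLAST 2.17.0 (last 500 bases, 100 bases at 95%). Alternatives were DESeq2 1.42.0, other scalings and filters, thinning, a replicate block, other added counts, other endothelial reference genes and the omission of each library. Python 3.11.15 with SciPy 1.17.1, NumPy 2.4.6, pandas 2.3.3 and Matplotlib 3.10.9 was used.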

Additional observations from a re-analysis of the deposited data

Results flagged for a closer look

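Of 50 groups of values screened for a single far library, 3 had one, and chance flags about 1 in 20 groups. The Cxcr4 level of IZ replicate 1 was 27.54 CPM, against 62.2 to 96.3 CPM in the other 8 IZ libraries. Its log2 ratio of Cxcr4 to Ackr3 was -0.4197, against 1.42 to 2.67. The same library had the highest sum of cardiomyocyte markers in the IZ, 24950 CPM, and the lowest sum of macrophage markers, 1785 CPM, and the part of these in its receptor levels was not tested. The Ccrl2 level of sham replicate 6 was 26.46 CPM, against 6.33 to 15.9 CPM in the other sham libraries.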

How the results depend on the processing

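Of 567 values recomputed for 28 results, 550 kept their direction and their side of the threshold (for a count of calls, stayed within 1.5 times). Over 25 other fits (24 for Ccr1 and Ccrl2, which did not reach a mean of 50 counts), the log2 fold changes ran from 3.58 to 4.80 for Cxcr4, 3.09 to 4.46 for Ccr2, 2.76 to 4.12 for Ccr1, 2.50 to 3.72 for Cx3cr1 and -2.25 to -1.03 for Ackr3, all past the threshold. Ccrl2 turned to 0.122 (adjusted p = 0.62) with total counts alone, a setting that made 85.8% of all calls higher against 52.3%. The number of receptors called lower was then 1, and it was also 1 with a minimum mean of 50 counts, where Ccrl2 was not tested. That minimum left 2747 genes higher and 2492 lower in place of 4470 and 4074, and total counts gave 9203 and 1524. With a count of 5 added, the difference in log2 ratio was -0.9945 for Ccr1 to Ccr2 and 0.7647 for Cxcr4 to Ptprc (adjusted p = 0.0176), both past the threshold, and it changed sign to -0.4292 for Ccr1 to Csf1r and to -0.0524 for Cx3cr1 to Csf1r, neither called. By difference in medians the last was -0.1423. The causes were not tested. Cxcr2 differed by 1.263 CPM (exact permutation p = 0.0281) under total count CPM. Leaving out each library in turn gave 0.58 to 0.89 for Cxcr4 to Ptprc, 0.52 to 0.93 for Ccr2 to Cx3cr1 and 0.99 to 1.40 for Ackr1 to Pecam1, which passed the threshold without sham replicate 5 or IZ replicate 7 or 8 and fell to 0.0956 with a count of 5 added (adjusted p = 0.759). Ackr3 relative to endothelial markers ran from -2.10 for Emcn to -0.43 for Kdr. Replicate numbers did not pair the mice, since same-numbered libraries correlated between -0.216 and 0.128 over 8 pairs, and 1 sham library correlated best with its own number. With the number as a replicate block, 4221 genes were higher and 3858 lower, and the log2 fold changes were 3.67 for Cxcr4, 3.40 for Ccr2, 2.90 for Ccr1, 2.66 for Cx3cr1, -2.03 for Ackr3 and -0.87 for Ccrl2, with no receptor call changed. Depth limits Cxcr2 and Ackr1, each with 47 counts in the IZ.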
